A study of Mus musculus with 2 samples.

Results

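Cpa3-positive early myeloid progenitors were followed here in mouse bone marrow as 162 of 14068 cell barcodes that passed the quality limits. They were chosen by counts of unique molecular identifiers (UMIs, 1 per captured RNA molecule) in each cell. A member held at least 3 UMIs of Cpa3, at most 1 each of Hlf and Flt3, and at most 4 each of Pf4, of Car1, of Prss34 plus Mcpt8, and of F13a1 plus Ly86. The neutrophil granule genes Ltf, Camp, Ngp, S100a8, S100a9 and Lcn2 together stayed below 1% of a member's UMIs, and the azurophil granule genes Elane, Prtn3 and Ctsg below 0.5%. The levels of these genes, and of every other gene in the same cells, therefore describe the selection and were not tested.

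The study compared CD45.2+Kit+ bone marrow cells from a control and from a Utx-deleted condition, both taken 10 weeks after transplantation, with 1 library each. UTX, encoded by Kdm6a, is a histone H3K27 demethylase found in the MLL3 and MLL4 histone methyltransferase complexes, and the series asks how these complexes bear on stem cell self-renewal and on myeloid and B cell identity. RNA was read from the 3′ end together with barcoded antibodies to 13 surface proteins and 2 hashtags. The labels used here give neither the allele, the Cre driver and the recipient strain nor the number of animals, and they do not say what the hashtags mark. With 1 library a condition there is no replicate error. Intervals below are 95% counting intervals of the cells and UMIs read, and a difference between the libraries cannot be told apart from a difference between any 2 preparations.

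Carboxypeptidase A3 is a protease of mast cell and basophil secretory granules, and its transcript is already present in early progenitors of the myeloid lineages. GATA2 and GATA1 act in the progenitors of mast cells, basophils, eosinophils, megakaryocytes and red cells, whereas C/EBPα and PU.1 act in those of neutrophils and monocytes, which load azurophil granules with myeloperoxidase and elastase. Mast cells also need the receptor KIT and the transcription factor MITF.

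GATA factors bind letters such as GATAA, so the 250 bases before the start of 3 granule or receptor genes on which the results turn are shown. Cpa3 chose the cells, Ms4a2 (the β chain of the high-affinity IgE receptor) was also expressed in them, and Cma1 (mast cell chymase) had UMIs in members of 1 library and not of the other. The sequences are those of RefSeq for GRCm38.p6, read 5′ to 3′ on the minus strand, with GATAA or its reverse complement TTATC in capitals. They lie at chr3:20242182-20242431, chr19:11623720-11623969 and chr14:55944676-55944925, directly upstream of each gene.
Cpa3: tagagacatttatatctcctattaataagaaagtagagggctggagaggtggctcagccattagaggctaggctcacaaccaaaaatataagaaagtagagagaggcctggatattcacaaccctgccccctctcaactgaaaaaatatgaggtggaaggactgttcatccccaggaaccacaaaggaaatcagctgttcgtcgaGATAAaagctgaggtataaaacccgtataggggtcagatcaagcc
Ms4a2: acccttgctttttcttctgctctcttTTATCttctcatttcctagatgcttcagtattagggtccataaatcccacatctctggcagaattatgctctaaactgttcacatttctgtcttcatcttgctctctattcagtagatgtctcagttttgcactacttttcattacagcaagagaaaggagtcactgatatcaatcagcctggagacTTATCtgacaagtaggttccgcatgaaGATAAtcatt
Cma1: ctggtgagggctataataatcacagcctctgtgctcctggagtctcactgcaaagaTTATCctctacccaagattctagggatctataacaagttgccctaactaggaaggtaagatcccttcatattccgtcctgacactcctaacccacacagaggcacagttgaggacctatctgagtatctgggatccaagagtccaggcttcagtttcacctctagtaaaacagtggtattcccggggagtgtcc
The window before Cpa3 held 1 match, starting at position -45 from the gene's start, the window before Ms4a2 held 3, and that before Cma1 held 1. Of 32536 such windows 22.5% held a GATAA in either orientation. The windows before Gzmb, Slc24a3 and Apoe held none. A match describes the letters alone and shows no binding.

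The files list 7827 control barcodes, holding 122130256 gene UMIs in all, and 7883 barcodes labelled Utx-deleted, holding 129736034. After barcodes with under 500 genes or 10% or more mitochondrial UMIs, and those with both hashtags, were left out, 7098 and 6970 remained, of which 5390 and 5412 exceeded the neutrophil granule limit. The libraries shared 17 barcodes, none of them a member. Kdm6a itself was not lower in the members of the library labelled Utx-deleted. It stood at 198 UMIs per 1000000 gene UMIs (counts scaled to depth, CPM) from 473 UMIs in the control and at 224 CPM from 232 UMIs in the other library, a log2 ratio of 0.18 (-0.053 to 0.41), with UMIs in 97.3% and 100% of members. Counts from the 3′ end do not show whether an internal part of the gene was deleted, so Kdm6a does not check the label here.

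Members made up a smaller share of the library labelled Utx-deleted. They were 110 of 7098 barcodes in the control, 1.55% (exact binomial interval 1.28% to 1.86%), and 52 of 6970 in the other library, 0.746% (0.558% to 0.977%). By hashtag the control shares were 1.69% and 1.44% and the others 0.491% and 0.980%, so both hashtag populations of the control lay above both of the other library. Among barcodes below the neutrophil granule limit the shares were 6.44% of 1708 and 3.34% of 1558. The limits count whole UMIs and so move with depth. With every cell thinned to 5000 UMIs before the rule was applied, 107 and 56 cells passed, of which 69 and 36 were members, and 565 and 314 shallower barcodes were left out.

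Members were deeply read cells in both libraries. Their UMIs ran from 5658 through a median of 21397 to 38824 in the control and from 4518 through 17331 to 50505 in the other library, with median gene numbers of 5437.5 and 4765.5. Summed over members this gave 2388330 and 1033854 gene UMIs. The control held 13 cells with 3 Cpa3 UMIs, just inside the threshold, and 15 with 2, just outside, and the other library 5 and 8. Cells that kept every other limit but held no Cpa3 UMI numbered 160 and 104. The Cpa3 threshold alone kept out 188 and 118 cells. Among the upper limits, that on azurophil genes most often alone kept out a cell with 3 or more Cpa3 UMIs, for 69 and 49 cells, followed in the control by that on Hlf, the stem cell transcription factor, for 61 and 18 cells. The limit on the basophil proteases Prss34 and Mcpt8 alone kept out 33 and 21.

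The 5 proposed marker genes were all past 2-fold higher in members than in granule-high cells of both libraries, but they did not set the members apart from all immature cells. Over 11777 genes, 37.8% were higher and 9.3% lower in members than in granule-high cells by this measure, so the contrast with granule-high cells is a broad one. Cpa3 stood at 861 and 2459 CPM in control and Utx-labelled members. In the cells kept out for basophil proteases it was higher, at 2670 and 2932 CPM, and in granule-high cells it was 7.02 and 4.34 CPM. Ikzf2, which encodes the transcription factor Helios, had UMIs in 100% of the members of both libraries. It stood at 891 and 1224 CPM in members, 473 and 560 CPM in Hlf-positive cells and 1399 and 1338 CPM in basophil-protease cells. Auts2, which encodes a partner of a Polycomb complex, had UMIs in 63.6% and 80.8% of members, at 755 and 2177 CPM. In the members of the library labelled Utx-deleted 1 cell held 23.5% of the Auts2 UMIs. Slc24a3, a sodium, calcium and potassium exchanger, stood at 161 and 272 CPM in members and at 141 and 154 CPM in azurophil-high cells. Csmd1 rested on 27 and 19 UMIs, in 11.8% and 15.4% of members. Csmd1 and Auts2 span 1643 and 1106 kb, against a median of 23.0 kb over 11777 genes, and the sources used here do not say whether reads in introns were counted.

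**Figure D1:**
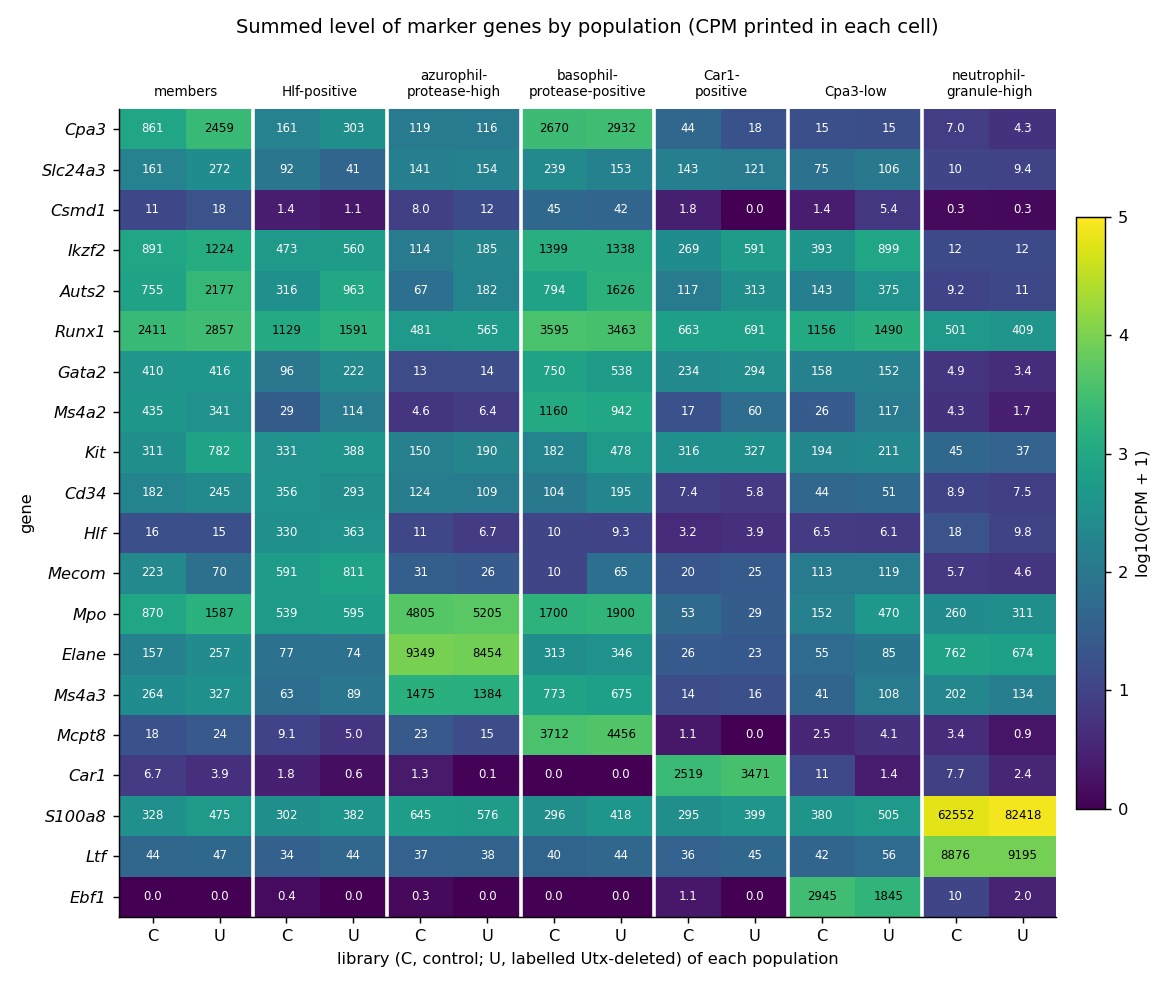
Summed level of marker genes (vertical axis) in members and the neighbouring populations (columns, with C for the control and U for the library labelled Utx-deleted), coloured by log10 of CPM plus 1 and printed as CPM. The 5 proposed markers head the list and lie above granule-high cells in members, whereas Cpa3 and Ikzf2 are higher still in basophil-protease cells.

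Summed over cells, members held both neutrophil and mast cell or basophil lineage transcripts. The rule capped 3 genes of the first list and 2 of the second, Prss34 and Mcpt8. It defined the neighbours by the same genes, so their order does not check the label. The early granulocyte list summed to 8426 and 10063 CPM in members, against 41282 and 39852 CPM in azurophil-high cells and 5405 and 4387 CPM in Hlf-positive cells. Mpo, which encodes myeloperoxidase, was at 870 and 1587 CPM. The mast cell and basophil list, which does not hold Cpa3, summed to 2862 and 5281 CPM in members, against 14666 and 14576 CPM in basophil-protease cells. Gata2 was at 410 and 416 CPM and Ms4a2 at 435 and 341 CPM. Spearman's rho between the 2 lists was 0.29 across the 110 control members and -0.57 across the 52 others. In the library labelled Utx-deleted the 2 kinds of transcript thus tended to lie in different members. The 16 stem cell genes summed to 2650 and 2011 CPM, below the 3793 and 4434 CPM of Hlf-positive cells. They include Hlf, which the rule capped in members and which defined the Hlf-positive cells, so this order does not check the label either.

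Lists of other lineages ranged from 0 UMIs to levels near those of the neighbouring populations. The megakaryocyte list summed to 160 and 68.7 CPM in members, against 87.2 and 105 CPM in Hlf-positive and 153 and 99.7 CPM in basophil-protease cells, although the rule capped Pf4. The dendritic cell list summed to 288 and 321 CPM, against 588 and 489 CPM in Hlf-positive and 248 and 238 CPM in azurophil-high cells. The 9 T and NK cell genes had 0 UMIs in control members, and 34 UMIs, or 32.9 CPM, in the others, 33 of them in members with neither mast cell protease nor eosinophil granule UMIs. Ebf1, which starts the B cell programme, and Cd3e had 0 UMIs in the members of both libraries. The 8 macrophage genes summed to 19.3 and 10.6 CPM, with no UMI of C1qc. The erythroid list summed to 518 and 186 CPM, against 4983 and 5767 CPM in Car1-positive cells. Of the latter, 2519 and 3471 CPM were Car1 itself, which the rule capped in members and which defined those cells. The maturing neutrophil list summed to 1611 and 1838 CPM in members and to 1509 and 1601 CPM in Hlf-positive cells, with medians of 21397 and 17331 UMIs a cell in members and 23857.5 and 28019 in Hlf-positive cells. S100a8 was at 328 and 475 CPM in members and at 302 and 382 CPM in Hlf-positive cells, similar levels in both populations, whose S100a8 the rule limited. Whether free RNA took part was not tested.

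Compared with Hlf-positive cells, members summed over all kinds held more UMIs of some mast cell and basophil genes, and part of this excess lay in 1 kind of member. Of 9505 genes, 104 (1.09%) were past 2-fold higher in members in both libraries and 154 (1.62%) lower. These comparisons used the cells that the rule sorted, and they are a description. Fcer1a, the α chain of the IgE receptor, was higher by log2 ratios of 5.13 and 3.52. Il1rl1, the receptor for interleukin 33, was higher by 3.86 and 3.52, and Alox5, which makes leukotrienes, by 3.54 and 3.99. Csrp3, a LIM-domain protein, was higher by 4.97 and 2.98. In the library labelled Utx-deleted the Fcer1a and Il1rl1 excess lay in members with mast cell protease UMIs. The 29 members with neither these nor eosinophil granule UMIs held Fcer1a at 9.93 CPM and Il1rl1 at 25.5 CPM, against 11.6 and 28.1 CPM in Hlf-positive cells. Of the 135 Alox5 UMIs in that library's members, 124 lay in members with mast cell protease UMIs. The 29 members held Alox5 at 15.6 CPM, against 7.70 CPM in Hlf-positive cells. The lower genes included Flt3 and Hlf, which the rule limited, and the haemoglobin genes Hbb-bs and Hbb-bt.

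Compared with azurophil-high cells, 784 of 9857 genes (7.95%) were higher in members in both libraries and 272 (2.76%) lower. Among the higher ones, Gna14, a G protein subunit, stood at 163 and 211 CPM against 2.46 and 2.86 CPM, and St8sia6, a sialyltransferase, at 123 and 123 CPM against 0.224 and 0.914 CPM. Ly6c2, a surface antigen of monocytes and their precursors, was lower, at log2 ratios of -5.56 and -5.13. Elane and Prtn3 were lower too, as the rule required. Hp, which encodes haptoglobin, was at 9.63 and 12.6 CPM in members and at 276 and 147 CPM in azurophil-high cells.

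Basophil-protease cells were the neighbours with the smallest share of genes past 2-fold, 44 of 6728 (0.654%) higher in members and 49 (0.728%) lower. They are also few, 33 and 21 cells. Besides Prss34 and Mcpt8, which the rule limited, Ets1, a transcription factor, was lower in members, at 12.1 and 31.9 CPM against 264 and 227 CPM. Csf1, a macrophage growth factor, was lower at 24.7 and 10.6 CPM against 141 and 135 CPM. Bach2, a transcriptional repressor, was higher in members, at 36.0 and 73.5 CPM against 1.68 and 18.6 CPM. Against Car1-positive cells, 369 of 7886 genes (4.68%) were higher in members and 150 (1.9%) lower, among the lower ones the Rh antigen genes Rhag and Rhd. Cells with under 3 Cpa3 UMIs that kept the other limits were partly lymphoid. They held Ebf1 at 2945 and 1845 CPM and Pax5 at 202 and 196 CPM, each with 0 UMIs in members, and 116 of 8482 genes (1.37%) were higher in members and 349 (4.11%) lower.

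The members were not uniform, and mast cell protease transcripts divided them. This division was chosen after the values were seen. The name early myeloid progenitors labels the selection and may not suit every member. Members with at least 1 UMI of Gzmb (granzyme B), Cma1, Mcpt4, Tpsb2 or Tpsab1 (mast cell chymases and tryptases) numbered 12 of 110 in the control, 10.9% (5.77% to 18.3%), and 20 of 52 in the library labelled Utx-deleted, 38.5% (25.3% to 53.0%). By hashtag they numbered 8 and 4 in the control and 7 and 13 in the other library. A further 2 and 3 members held at least 5 UMIs of Prg2 and Prg3, the major basic proteins of eosinophil granules, and 96 and 29 held neither. With every cell thinned to 5000 UMIs the shares with a mast cell protease UMI were 7.27% and 34.0%. Granule-high cells, which should lack granzyme B, held a Gzmb UMI in 3 of 5390 (0.0557%) and 4 of 5412 (0.0739%). Their median depths, 9823 and 9712 UMIs, were below those of members. Gzmb was in 4.72% and 0% of Car1-positive cells, and in 4.26% and 6.78% of cells kept out by the Cpa3 threshold alone. It was in 0.676% and 6.15% of Hlf-positive, 0% and 0.311% of azurophil-high and 12.1% and 23.8% of basophil-protease cells. Whether free RNA took part in the members' UMIs was not tested.

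**Figure D2:**
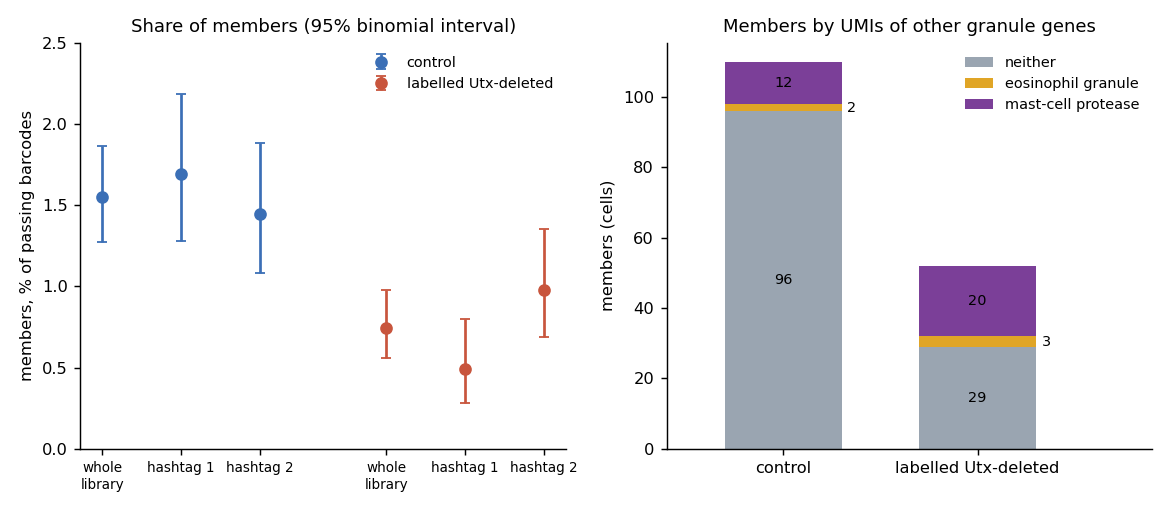
Left, members as a percent of passing barcodes in each library and hashtag population, with 95% exact binomial intervals, and right, the number of members of each kind, stacked by library. The share is 1.55% in the control and 0.746% in the library labelled Utx-deleted, where members with a mast cell protease UMI number 12 of 110 and 20 of 52.

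Among members, chymase and tryptase UMIs were found in the library labelled Utx-deleted, and none in the control. Basophil-protease cells, which are no members, held them in both, with Cma1 at 18.5 CPM from 11 UMIs in the control and at 1566 CPM from 675 UMIs in the other library, above the 438 CPM of members there. Cma1 (chr14:55941451-55944675, minus strand) had 0 UMIs in 110 control members, which allows a share of members with a Cma1 UMI of up to 2.73% by 3 counts of the total, or 3.30% by the exact binomial interval, and sets no limit on members that express it, and 453 UMIs in 11 of 52 members of the other library. Against a floor of 3 UMIs over the control members it was at least 349-fold higher, and the lower end of its counting interval was a log2 ratio of 8.14. Mcpt4 had 0 and 149 UMIs, the latter in 3 members, and Tpsb2 0 and 122 UMIs, in 6 members. Tpsab1 had none in either. By hashtag Cma1 was at 0 and 0 CPM in control members and at 1190 and 191 CPM in the others. Granzyme B was in both libraries, with 137 UMIs in 12 control members and 503 UMIs in 18 of the others. Control members with a mast cell protease UMI were therefore defined by Gzmb alone.

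Such cells were rare over all passing barcodes. At least 5 UMIs of Cma1, Mcpt4 and Tpsb2 together were found in 1 of 7098 control barcodes and in 17 of 6970 of the other library. Of these, 0 and 8 were members, and 1 and 5 were basophil-protease cells, of which there were 33 and 21.

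Members with a mast cell protease UMI held little myeloperoxidase in both libraries. Mpo was at 39.4 CPM in them and at 875 CPM in the members with neither kind of UMI in the control, and at 21.4 and 2158 CPM in the other library. In the control 5 of 12 of these members held an Mpo UMI, with 3 at the most, against 79 of the 96 with neither. In the library labelled Utx-deleted 5 of 20 did, with 2 at the most, against 24 of 29. The eosinophil granule members, 2 and 3 cells, held Mpo at 3799 and 2332 CPM. The sets with protease UMIs and with neither thus overlapped only at low Mpo counts. Mpo was not used in the division, which makes this a property the division did not set, although both come from the same cells.

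Several genes of mast cells were higher in such members than in members with neither kind of UMI, by more in the library labelled Utx-deleted than in the control. The mast cell and basophil list, which holds the proteases that made the division, summed to 14161 and 2025 CPM there and to 6104 and 2628 CPM in the control. Kit, the receptor for stem cell factor, was at 2116 CPM in the protease members and 289 CPM in those with neither in that library, and at 512 and 298 CPM in the control. Mitf (chr6:97807052-98021349, plus strand), the transcription factor of mast cell differentiation, was at 842 and 35.5 CPM there and at 113 and 37.0 CPM in the control, where 1 protease member held 15 of the 20 UMIs. Without that cell Mitf was at 30.7 CPM in the control's protease members, and no excess remained there. Gata2 was at 821 and 279 CPM, against 546 and 407 CPM in the control. Il1rl1 was at 1146 and 25.5 CPM, and at 152 and 87.3 CPM in the control. A single control protease member held 12 of the 27 Il1rl1 UMIs, and without it the level was 91.3 CPM, near that of the members with neither. Fcer1a was at 464 and 9.93 CPM, whereas in the control it was at 67.6 and 73.0 CPM, with no excess in the members with a mast cell protease UMI. Ms4a2 was higher by log2 ratios of 0.85 there and 0.61 in the control. Hdc, which makes histamine, was lower at -0.94 there and higher at 0.31 in the control.

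The neutrophil lineage genes Cebpa and Ms4a3 were lower in the protease members of the library labelled Utx-deleted. Cebpa, which encodes C/EBPα, was at 14.3 CPM in them and at 132 CPM in the members with neither, and Ms4a3, a granulocyte progenitor gene, at 32.1 and 411 CPM. In the control Cebpa was at 113 and 126 CPM and Ms4a3 at 175 and 257 CPM. Of 2009 genes, 130 (6.47%) were past 2-fold higher and 122 (6.07%) lower in the protease members of the library labelled Utx-deleted, and of 4576 genes in the control 168 (3.67%) were higher and 300 (6.56%) lower. The proliferation gene Mki67 was at 114 and 359 CPM in the former library and at 180 and 476 CPM in the control. A single protease member held 19 of the 32 Mki67 UMIs of the former and 29 of the 32 of the control, and without that cell the levels were 53.1 and 20.1 CPM.

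Between the libraries, of 727 genes with at least 100 UMIs in the protease members 68 (9.35%) were past 2-fold higher in those labelled Utx-deleted and 24 (3.3%) lower. Among these 12 and 20 members Prkcb had 2 and 351 UMIs, and Apoe was lower at a log2 ratio of -2.50.

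Depth and an RNA-quality measure moved with this division. Members with a mast cell protease UMI had median depths of 14694 and 11361 UMIs, against 22450 and 23161 for those with neither. The summed level of the 7 RNA-quality genes was 11374 and 14782 CPM in them, against 7806 and 7368 CPM. The part of either in the differences was not tested.

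The highest Cpa3 levels belonged to the same cells. No control member exceeded 34.5 Cpa3 UMIs per 10000. In the library labelled Utx-deleted 14 members did, at 37.2 to 239 per 10000, and all 14 held a mast cell protease UMI. They came as 7 and 7 from the 2 hashtag populations, and 2 of them held an Mpo UMI. Their antibody counts, which the rule did not use, were also high for some antibodies. The median was 612.5 for CD117, the KIT protein, against 162 over all members of that library, these cells included. For CD16/32, the Fcγ receptors, the median was 307.5 against 94, and for B220 it was 60.5 against 13. Over the 20 protease members of that library, medians of CD48 and CD41 were not raised, at 440.5 against 474 and 5.5 against 9.

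**Figure D3:**
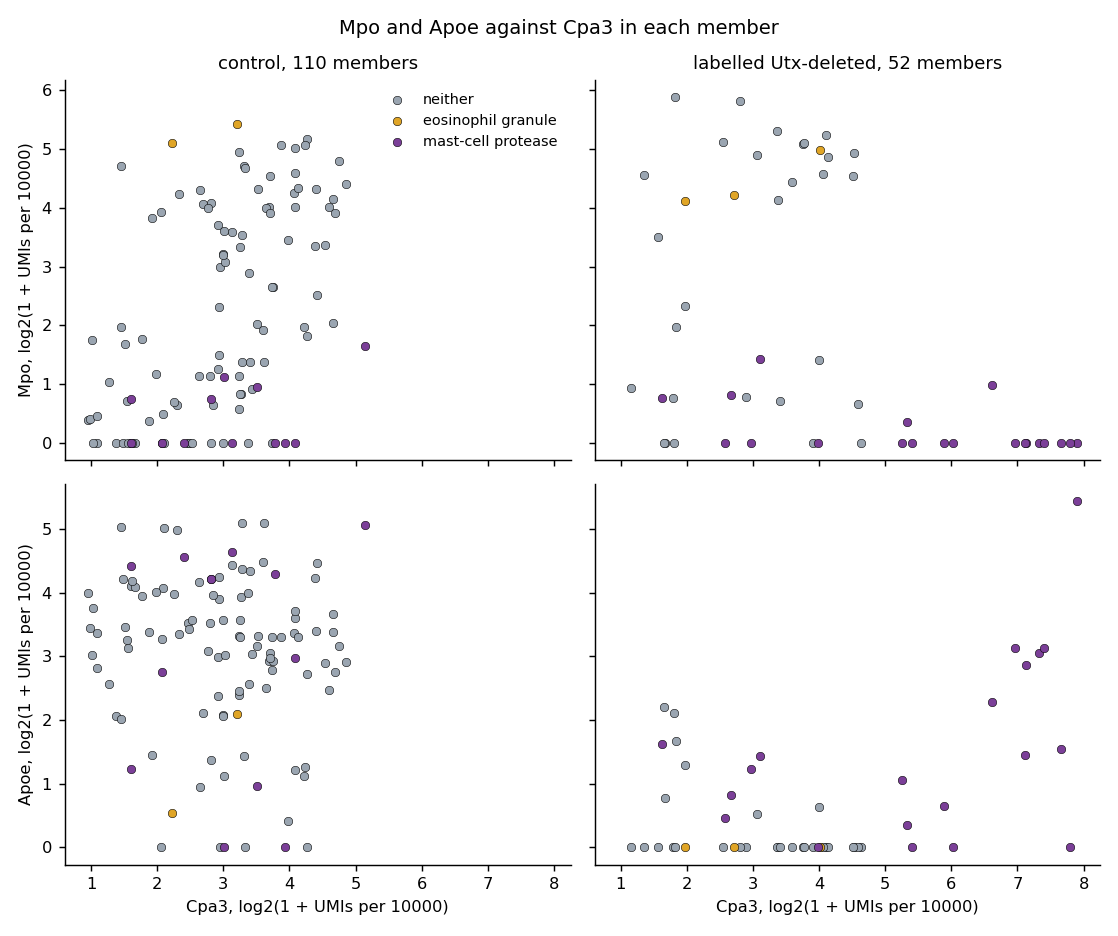
Each member as 1 point, coloured by kind, with Mpo (top) and Apoe (bottom) against Cpa3, all as log2 of 1 plus UMIs per 10000, in the control (left) and the library labelled Utx-deleted (right). The 14 members above the highest control Cpa3 level are all members with a mast cell protease UMI, at little or no Mpo, and most control members lie above 0 for Apoe.

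Members with eosinophil granule transcripts were few but distinct. The 3 in the library labelled Utx-deleted held 207 to 284 Prg2 UMIs each, and 1 control member accounted for 426 of the 427 control UMIs. Mpo UMIs were present in all 5 of them. In the members with neither class the 9 eosinophil genes summed to 3.70 CPM in the control and 5.67 CPM in the other library, from 8 and 4 UMIs, a low level fixed by the division, since Prg2 and Prg3 hold most UMIs of that list.

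Control members with more Cpa3 held more early granulocyte and fewer stem cell and G2 and M transcripts. With control members ranked by Cpa3 per UMI and split into 3 groups of 36 to 37 cells, the early granulocyte list summed to 4629, 7715 and 9422 CPM from low to high, Mpo stood at 325, 913 and 1430 CPM, and the stem cell list at 3879, 2090 and 1869 CPM. The mast cell and basophil list, which does not hold Cpa3, stood at 1967, 2991 and 3656 CPM, and the G2 and M list at 3112, 2783 and 1776 CPM. Car2, which encodes a carbonic anhydrase of red cell and other progenitors, stood at 560, 170 and 76.9 CPM. The median depths of these groups were 23028.5, 22316 and 17905 UMIs, and the part of depth was not tested. Across the 110 control members Spearman's rho of the early granulocyte list was 0.60 with Cpa3 and -0.71 with the stem cell list. These points share 1 library and 1 rule and are given as a description. In the library labelled Utx-deleted the group highest in Cpa3 held 14 of the 20 mast cell protease members. There Mpo stood at 1611, 2287 and 441 CPM and Kit at 287, 294 and 2269 CPM, with median depths of 20370, 22360 and 10930.5 UMIs. The RNA-quality genes summed to 9019, 7144 and 13418 CPM in these groups and to 9016, 7729 and 7430 CPM in the control groups. Their part was not tested.

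Between the libraries, a small share of genes was past 2-fold in members, in both directions. Of 5883 genes with at least 100 UMIs in the members, 95 (1.61%) were past 2-fold higher and 83 (1.41%) lower, with a median log2 ratio of -0.012 over all. With non-overlapping hashtag populations also asked for, 89 (1.51%) were higher and 83 (1.41%) lower. Within a library the 2 hashtag populations differed past 2-fold in 8 (0.173%) and 3 (0.0648%) of 4629 genes in the control, and in 51 (2.41%) and 60 (2.84%) of 2114 in the library labelled Utx-deleted, whose 16 members of hashtag 1 included 7 with a mast cell protease UMI. Without the mast cell protease and eosinophil granule members 36 of 5260 genes (0.684%) were higher and 80 (1.52%) lower. Of the 95 higher genes 21 were among them, and of the 83 lower ones 52. This leaves out both kinds of member at once, and fewer genes then reach 100 UMIs.

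Most genes named as higher had smaller ratios in the members with neither mast cell protease nor eosinophil granule UMIs. Prkcb, a protein kinase C, had 24 and 359 UMIs and a log2 ratio of 5.06 (4.51 to 5.77), whereas the members with neither held 12 and 3 of these UMIs, at 5.54 and 4.25 CPM. Hs6st2, a heparan sulfate sulfotransferase, had 18 and 267 UMIs and a ratio of 5.03 (4.41 to 5.88). In the members with neither it was 0.70 (-0.81 to 1.93) from 16 and 8 UMIs, and -1.40 without the 1 member that held 7 of those 8. Carmil1, an actin regulator, was at 4.13, and Id2, an inhibitor of helix-loop-helix factors, at 4.03. Carmil1 had 9 and 2 UMIs and Id2 4 and 1 in the members with neither, too few for a ratio. Mitf went from 2.55 (2.22 to 2.90) to -0.021, and Basp1 and Tiam2 from 3.51 and 3.46 to 1.03 (0.031 to 1.94) and 1.13 (0.0058 to 2.16). Gzmb was 3.08 (2.81 to 3.37) higher, all of it in the members that its own UMIs defined. A single control member held 88 of the 137 control Gzmb UMIs, and without it the log2 ratio was 4.53.

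A few genes were higher with and without both kinds of member. Ppm1e, a protein phosphatase, had 54 and 149 UMIs, in 26 of 110 and 27 of 52 members, with a log2 ratio of 2.66 (2.21 to 3.15) and of 2.52 without the protease and eosinophil granule members. By hashtag it was at 24.4 and 20.7 CPM in control members and at 86.2 and 163 CPM in the others, which did not overlap. In the members with neither it was at 24.6 and 21.7 CPM by hashtag in the control and at 36.3 and 170 CPM in the other library, and without the 1 member that held 33 of the 94 UMIs there the ratio was 1.94. The non-coding gene 2610035D17Rik was 2.41 higher, and 2.27 without them. Both were also higher in granule-high cells, by 1.97 and 2.12. In basophil-protease cells 2610035D17Rik was higher by 3.05, whereas Ppm1e was at -0.83, with 72.3 CPM in the control and 39.4 CPM in the other library. Tox, a transcription factor known from T cells, had a ratio of 3.32, and 4.83 in the members with neither from 6 and 64 UMIs. There it was at 0 and 5.43 CPM by hashtag in the control and at 5.19 and 123 CPM in the other library, so the libraries overlapped and 1 hashtag population held most UMIs. Without the 1 member that held 36 of the 64 UMIs the ratio was 3.70. The T and NK cell list had 0 and 33 UMIs in the same members, and its part in the Tox ratio was not tested.

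Apoe, which encodes the lipid carrier apolipoprotein E (chr7:19696109-19699188, minus strand), was lower in the members of the library labelled Utx-deleted. It had 2223 UMIs in 104 of 110 control members and 90 UMIs in 23 of 52 members of the other library. Its level was 930 and 932 CPM in the 2 control hashtag populations and 196 and 51.4 CPM in the others, so the libraries did not overlap. The log2 ratio was -3.40 (-3.74 to -3.11), and it was -4.80 in the members with neither class. With cells thinned to 5000 UMIs, 87.3% and 28.0% of members held an Apoe UMI, and unthinned 94.5% and 44.2%. Apoe was lower in other populations too, at log2 ratios of -2.35 in Hlf-positive, -4.36 in azurophil-high and -2.00 in granule-high cells, where its level was 15.1 and 3.77 CPM. The difference was therefore not confined to members.

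The carbonic anhydrase gene Car2 (chr3:14886273-14900770, plus strand) had 656 UMIs in 85 control members and 23 in 14 members of the other library, at 275 and 22.2 CPM. By hashtag it was at 352 and 193 CPM in the control and at 15.7 and 24.4 CPM in the other, a log2 ratio of -3.57 (-4.29 to -3.03), and -3.24 without the protease and eosinophil granule members. The same ratio was -1.86 in basophil-protease, -1.70 in azurophil-high, -1.93 in granule-high and -0.94 in Cpa3-low cells, and 0.13 in Hlf-positive and 0.39 in Car1-positive cells. Car2 was therefore lower in several neighbouring populations too, and no test of the difference between populations was possible. Thinned to 5000 UMIs, 50.9% and 6.0% of members held a Car2 UMI.

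Pcdh7, a protocadherin (chr5:57717967-58133230, plus strand), had 578 and 17 UMIs, at 229 and 256 CPM by hashtag in the control and at 0 and 21.8 CPM in the other library, a log2 ratio of -3.80 (-4.67 to -3.19). It was also lower in basophil-protease (-2.17), Cpa3-low (-1.74), granule-high (-1.24) and Hlf-positive cells (-1.07). In Car1-positive and azurophil-high cells it was at -0.82 and -0.23. Itgal, the α chain of the leukocyte integrin LFA-1 (chr7:127296260-127335138, plus strand), had 130 UMIs in 64 control members and 3 in 3 members of the other library, a ratio of -3.83 (-6.53 to -2.65). Thinned to 5000 UMIs, 21.8% of control members and 0.0% of the others held an Itgal UMI. Itgal was also lower in Hlf-positive cells, at -4.26, and in azurophil-high cells, at -2.87. The remaining genes named as lower were Nrgn, March3, Sox6, Nol4l, Tgfbr3, Prkce, Ifitm3 and 6030498E09Rik. Of these Sox6, a transcription factor of red cell precursors, was at -2.67 in members, -1.86 in basophil-protease cells, -1.0 in granule-high cells and -0.10 in Hlf-positive cells. Tgfbr3, the co-receptor betaglycan, was at -2.17 in members, -0.10 in basophil-protease cells, -0.76 in granule-high cells and 0.61 in Hlf-positive cells. Without the protease and eosinophil granule members Sox6 was at -2.29 and Tgfbr3 at -1.83. A single member of the library labelled Utx-deleted held 21 of its 31 Tgfbr3 UMIs and a single member 7 of the 17 Pcdh7 UMIs. Without that member the ratio was -3.67 for Tgfbr3 and -4.46 for Pcdh7. With the rule applied to cells thinned to 5000 UMIs the ratio was -2.40 for Car2, -1.25 for Tgfbr3, -1.85 for Sox6 and -3.19 for Pcdh7, whereas March3 went from -2.95 to -0.97.

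**Figure D4:**
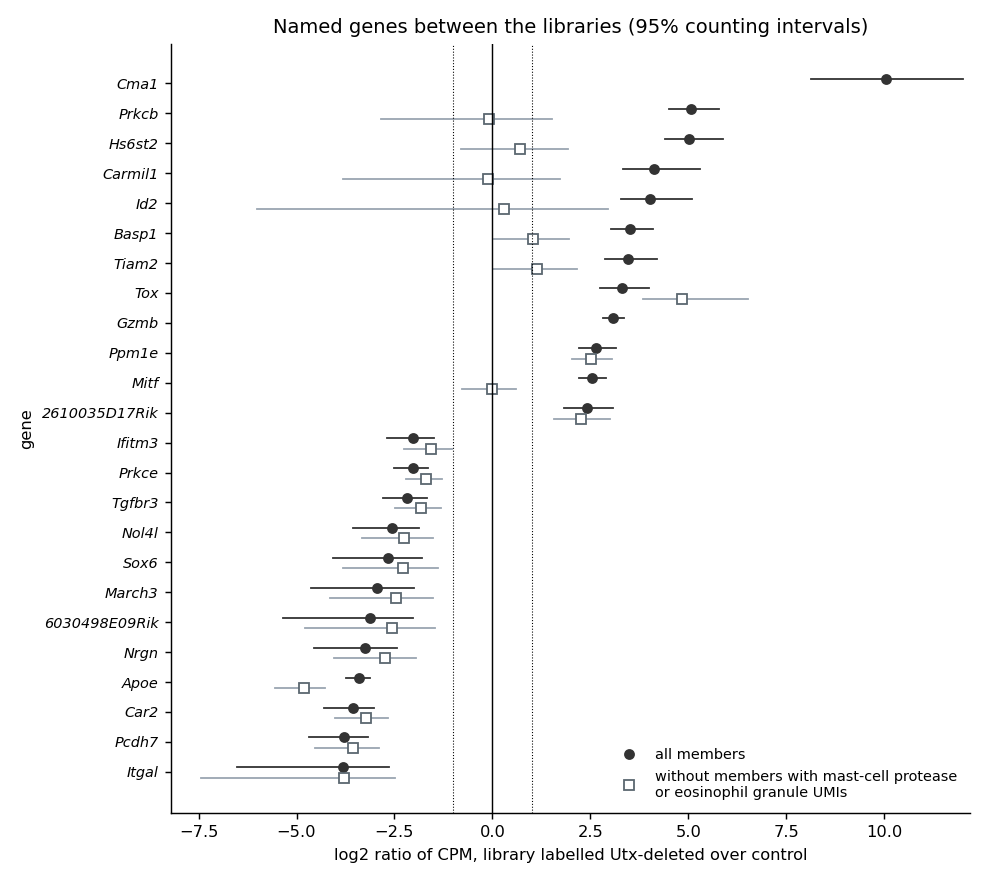
Log2 ratio of the library labelled Utx-deleted over the control for the named genes in all members, with 95% counting intervals, and in members without mast cell protease or eosinophil granule UMIs. Several genes higher in the library labelled Utx-deleted, such as Prkcb and Mitf, lie near 0 without those members, where Prkcb rests on 12 and 3 UMIs, whereas genes lower there, such as Apoe and Car2, stay below 0. The Id2 point without those members rests on 4 and 1 UMIs. The interval of Cma1 has no upper end because the control had 0 UMIs.

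The gene lists, each by its genes with at least 20 UMIs, are read against all 9950 such genes, of which 4.07% were past 2-fold higher and 3.35% lower with a median log2 ratio of 0.014. In the members with neither protease nor eosinophil granule UMIs 9542 genes had as many, of which 2.74% were higher and 3.89% lower, and the counts without those members are read against these. Of 22 mast cell and basophil genes 11 were higher and 0 lower, with a median of 1.12. Without the protease and eosinophil granule members 1 of 15 was higher and 5 lower, with a median of -0.54. Among the latter, Fcer1a stood at a log2 ratio of -2.69 and Il1rl1 at -1.70, and the summed level of the list was 2628 CPM in the control and 2025 CPM in the other library. The members left out were chosen by proteases that are on this list, so the change of its median follows in part from that choice and supports nothing further.

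The stem cell, megakaryocyte and erythroid lists had more genes past 2-fold lower than higher in the library labelled Utx-deleted, with and without the protease and eosinophil granule members. Of 14 stem cell genes 4 were lower and 1 higher, with a median of -0.66, and of the same number without those members 5 were lower and 1 higher, at -0.58. Mecom, a transcription factor of stem cells, had 532 and 72 UMIs and a log2 ratio of -1.66 (-2.05 to -1.32), and -1.78 without them. With the rule applied to cells thinned to 5000 UMIs, Mecom was at -0.32 and no longer past 2-fold. That rule chose 107 and 56 cells, of which 69 and 36 were members. Tek, the angiopoietin receptor, had 66 and 3 UMIs at -2.86 (-5.57 to -1.64). Meis1, a homeobox gene, stood at 609 and 616 CPM.

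Of 4 megakaryocyte genes 3 were lower and none higher, with a median of -2.40. Gp9, of the platelet glycoprotein Ib-IX complex, had 28 and 0 UMIs and was at least 4.04-fold lower. Itga2b, the platelet integrin αIIb, was at -0.86, and -1.62 without the protease and eosinophil granule members. Of 8 erythroid genes 4 were lower and none higher, with a median of -1.06. Klf1, the erythroid transcription factor, had 40 and 5 UMIs at -1.56, and Hemgn, expressed in red cell precursors, 55 and 1 UMIs at -3.60 (-9.90 to -2.04). These lists rest on few UMIs and on genes such as Car1 and Pf4 that the rule capped.

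Of 14 early granulocyte genes 1 was higher and 1 lower, with a median of 0.19, and without the protease and eosinophil granule members 4 were higher and 1 lower, at 0.54. Clec12a, an inhibitory receptor of myeloid cells, was at 1.77, and Nkg7, a granule protein, at -1.41. Mpo was at 0.87 (0.77 to 0.96) in all members, at 1.30 without them and at 0.17 with the rule applied to thinned cells. Elane and Ctsg, which the rule limited, were at 0.71 and 0.85. Of 14 myeloid transcription factors 4 were higher and none lower, with a median of 0.05. Cebpe, a factor of the later granulocyte steps, was at 15.1 and 80.3 CPM, a ratio of 2.39, from 36 and 83 UMIs in 11 and 13 members. The eosinophil granule members, 2 and 3 cells, held 20 of the 36 and 33 of the 83 UMIs. In the members with neither kind Cebpe was at 6.93 and 70.9 CPM, a ratio of 3.29 from 15 and 50 UMIs. Gfi1, a repressor in granulocyte precursors, was at 1.62 from 17 and 23 UMIs. Cebpa, Spi1 and Runx1 differed less, at -0.36, -0.093 and 0.24, and Gata2 was at 0.023.

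Of 16 genes of the G2 and M phases, which drive cell division, 3 were past 2-fold lower and none higher, with a median of -0.68 and a highest ratio of -0.15, and without the protease and eosinophil granule members none was past 2-fold, at -0.30. Cenpf, Ccnb1 and Ube2c, of the mitotic machinery, were at -1.35, -1.17 and -1.14. Of 19 genes of the G1 and S phases 1 was higher and 1 lower, with a median of -0.25. Depth moved with these genes. Spearman's rho of the G2 and M list with UMIs was 0.77 across the 110 control members and 0.76 across the 52 others. With the RNA-quality genes it was -0.048 in the control and -0.65 in the other library. The part of either was not tested.

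Genes of the UTX and Polycomb complexes differed little. Of 15 genes of the MLL and UTX complexes none was past 2-fold, with a median of -0.13, and Kmt2c and Kmt2d, which encode MLL3 and MLL4, were at 0.14 and 0.65. Of 9 genes of Polycomb repressive complex 2 none was past 2-fold, and Ezh2, its H3K27 methyltransferase, was at -0.044. Kdm6b, the other H3K27 demethylase, was at 0.31. Of 11 cytokine receptor genes 3 were higher and 2 lower, among them Kit at 1.33 (1.19 to 1.48) and at -0.040 without the protease and eosinophil granule members, and Csf3r, the G-CSF receptor, at -1.34. The immediate early and interferon lists held 1 gene past 2-fold each, Egr1 higher at 2.60 from 7 and 20 UMIs and Ifitm3 lower at -2.02. Satb1, a chromatin organiser on the B lymphoid list, was at 47.3 and 132 CPM, a ratio of 1.47. Of 10 Hox and cofactor genes 2 were lower, among them Hoxb2 with 25 and 0 UMIs, and of 4 cyclin-dependent kinase inhibitor genes 1 was lower, Cdkn2d at -1.80. Of the 7 RNA-quality genes 2 were lower, the heat shock gene Hspa1a at -1.72 and its neighbour copy Hspa1b at -1.72, whose reads may be shared. Of the 12 maturing neutrophil genes 1 was lower and none higher, and of 3 monocyte and 3 dendritic cell genes none was past 2-fold.

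The surface antibodies give a readout that the rule did not use. The antibody counts below are not scaled to depth, and the median sum over the 13 surface antibodies was 1200 UMIs a member in the control and 906 in the other library. Members carried CD48, a marker that separates progenitors from stem cells, at median counts of 783.5 and 474, and CD117 at 161 and 162. CD16/32 stood at 98 and 94, between Hlf-positive cells at 60.5 and 45 and azurophil-high cells at 454.5 and 256.5. CD34 stood at 12.5 and 26, below Hlf-positive cells at 51 and 56. Sca1 at 8 and 4 was likewise below Hlf-positive cells, at 22 and 10. Gr1 was at 23 and 19 against 928.5 and 1365 in granule-high cells, and CD11b at 7 and 4 against 273 and 236. The members were thus low for mature neutrophil antigens at the surface, and the FLT3 protein CD135 had medians of 0 and 0.

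Of the 13 antibodies 4 were past 2-fold between the libraries' members by their share of all surface antibody UMIs. CD34 was higher in the library labelled Utx-deleted by a log2 ratio of 1.23, and by 1.41 when each cell's counts were centred on their log mean. CD48 was at -0.50 by share and at -0.36 with centred counts, so that its ratio was not past 2-fold. By hashtag the CD34 medians were 13 and 12 in the control and 43.5 and 21 in the other, so they did not overlap. It was higher by 1.20 in azurophil-high cells and by 0.69 in Hlf-positive cells. B220 was higher by 1.15, and by 0.09 without the protease and eosinophil granule members. CD150 and CD135 were lower, at log2 ratios of -1.87 and -1.22, with medians of 4 and 1 for the former. With centred counts CD34 alone stayed past 2-fold, B220 was at 0.38 and CD150 at -0.99, and CD135 turned to 0.055. CD117 was higher by 0.87, and by 0.15 without those members. In the members with a mast cell protease UMI, CD117 had medians of 126.5 and 354, CD16/32 of 147 and 220.5 and B220 of 12 and 32.5.

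**Figure D5:**
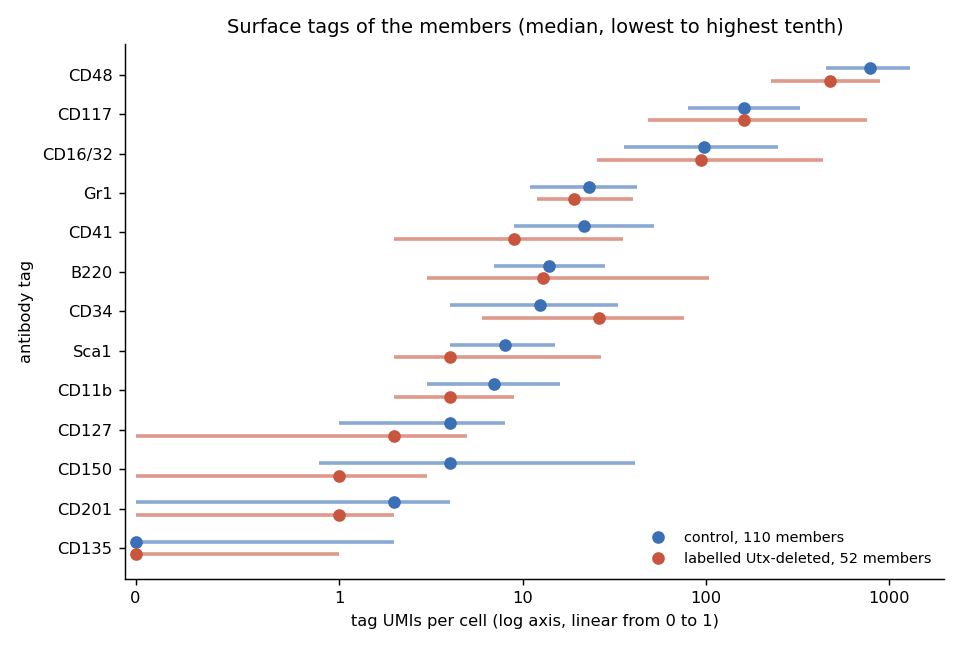
Antibody UMIs per member (horizontal log axis, linear from 0 to 1) for the 13 surface antibodies in the control and in the library labelled Utx-deleted, as the median with a line between the lowest and highest deciles of members. CD34 is higher in the latter, at 26 against 12.5, and CD48 lower, at 474 against 783.5, in counts not scaled to the median antibody totals of 906 and 1200 UMIs.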

How the data were processed

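RNA and 15 antibody tags were read in 1 control and 1 Utx-deleted library. The deposited values are whole-number UMI counts per gene and per tag in filtered barcodes, made by the authors with Cell Ranger 7.1.0 on mm10, per the submitters' processing notes. Gene annotation and intron counting are not given in the sources used here.

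Barcodes were kept with at least 500 genes and under 10% mitochondrial UMIs. Those with both hashtags at 100 UMIs or more and within 5-fold were left out as doublets. Scrublet (scanpy 1.11.5) was run as a further check, and its top 6% (467 and 463 barcodes) included 1 and 2 members. The neighbouring populations broke 1 limit of the rule and kept the others, and no Cpa3 threshold was set for them: Hlf at 2 UMIs or more (296 and 65 cells, with Flt3 free), the azurophil share at 0.5% or more (302 and 322), Prss34 plus Mcpt8 at 5 or more (33 and 21, all with 3 or more Cpa3 UMIs) or Car1 at 5 or more (106 and 18). Granule-high cells were all barcodes with a neutrophil granule share of 1% or more, whatever their other limits. UMIs were summed over the cells of a library and divided by their total (CPM), and log2 ratios were taken with 1 UMI added. Intervals are exact Poisson or Clopper-Pearson, cover counting error only and use no replicate. No test was made, because each condition has 1 library.

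Past 2-fold was asked of genes with at least 100 UMIs, and of list genes with at least 20. Named between libraries were the 12 highest and 12 lowest ratios past 2-fold with UMIs in 10 members of the higher library and non-overlapping hashtag populations. Named against neighbours were genes drawn from the 12 highest and 12 lowest past 2-fold in both libraries. Members, lists and comparisons were chosen with earlier results of these data known. Values of some single list genes are not reported here. The count of genes past 2-fold was tested on simulated counts for 5883 genes, of which 200 were changed 4-fold, and 97% of these were recovered, with 1 of 5705 unchanged genes past 2-fold. This checks the counting step and gives no rate for spread between cells or preparations. Within the library labelled Utx-deleted, 51 and 60 of 2114 genes were past 2-fold between hashtag populations. Alternatives covered quality limits, doublets, thresholds, thinning, scaling (TMM, edgeR 4.0.16), filters, pseudocount and hashtag populations. Gene positions are those of GENCODE M21, which held 99.8% of the gene IDs. Python 3.11.15, numpy 2.4.6, pandas 2.3.3, scipy 1.17.1, matplotlib 3.10.9 and R 4.3.3 were used.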

Additional observations from a re-analysis of the deposited data

How the results depend on the processing

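No paired analysis was possible because each condition has 1 library and the labels give no replicate numbers. The settings without the protease and eosinophil granule members or without the member richest in a gene, and the share below the granule limit, were chosen after seeing the data. The difference in member share was -0.80 percentage points, and -3.10 among barcodes below the granule limit, a smaller denominator. The 95 genes higher became 159 with the mean of each cell's CPM, 45 with hashtag 2 alone, 310 at 1.5-fold and 36 without the protease and eosinophil granule members. The 83 genes lower became 134 with hashtag 1 alone, 49 with hashtag 2 alone and 306 at 1.5-fold. With at least 20, 300 and 1 UMIs, which changes the genes counted, 405, 33 and 2223 were higher and 333, 22 and 752 lower. List genes higher were 25, then 54 with any UMI and 14 without those members. Without those members the mast cell and basophil median turned to -0.54, Mitf to -0.021, Il1rl1 to -1.70, Kit to -0.040 and Inpp4b to -0.23. Centred log ratios left 1 antibody past 2-fold and turned CD135 to 0.055. Thinning every cell to 5000 UMIs, which lowers the UMIs counted, left 39 genes lower against Hlf-positive, 437 higher against azurophil-high, 8 higher against basophil-protease, 108 higher and 39 lower against Car1-positive and 170 lower against Cpa3-low cells. TMM scaling gave 92 higher and 90 lower and moved the median ratio to -0.034. Of the other log2 ratios under these settings, 470 stayed within their counting interval and 108 left it, and Cebpa, Gata1, Gata2, Ms4a2 and Ms4a3 changed sign in 1 to 4 settings each without passing 2-fold there. Fcer1a, at 0.96, turned to -2.69 without those members. The 52 members of the library labelled Utx-deleted, 16 of them of hashtag 1, limit every ratio, as does the single library a condition.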
